A study of Mus musculus with 29 samples.

Results

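The loci of 3 cytokine genes, Il6, Il12b and Il10, were examined in RAW264.7, a macrophage-like cell line from a mouse tumour induced by Abelson leukaemia virus. The data are every deposited peak and every chromatin-state segment that overlaps 1 of 3 windows given in mm9 coordinates. The windows are chr5:30320000-30370000 for Il6 (50 kb), chr11:44200000-44260000 for Il12b (60 kb) and chr1:132900000-132940000 for Il10 (40 kb). They hold 214 of the 1190714 peaks in all lists, 65 at Il6, 77 at Il12b and 72 at Il10, and 320 of 2070063 segments. The lists come from chromatin immunoprecipitation and sequencing of 7 histone marks and of PU.1. All 7 marks were profiled before treatment and at 1 h and 4 h of exposure to 100 ng/ml bacterial lipopolysaccharide (LPS), PU.1 in untreated cells only, and H3K4me1 and H3K36me2 also after 1 h of flavopiridol and after 1 h of flavopiridol followed by 4 h of LPS. Each mark and condition has 1 library, and the cells are 1 transformed line and not primary macrophages. The 3 input samples, from untreated cells and from 1 h and 4 h of LPS, have no list here. No sample is an input of cells given flavopiridol.

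IL-6 is an acute-phase cytokine, Il12b encodes the p40 subunit shared by the cytokines IL-12 and IL-23, and IL-10 is the main anti-inflammatory cytokine that macrophages make. In macrophages, LPS acts through Toll-like receptor 4 and NF-kB, and these genes belong to the later part of that response, which depends in part on chromatin changes and on factors made earlier. PU.1 is the transcription factor that marks macrophage enhancers. H3K4me1 is found at enhancers and promoter flanks, H3K27ac at active enhancers and promoters, H3K4me3 at promoters and H3K27me3 over genes held silent by Polycomb proteins. H3K36me2 is spread over active domains, while H3K36me3 and H3K79me2 lie over transcribed gene bodies. Flavopiridol inhibits the kinase CDK9 and so blocks transcription elongation. In the RefSeq annotation the gene next to Il6 is Tyms, which makes thymidylate synthase, and the long non-coding RNA gene A230098N10Rik overlaps Il6. Ublcp1 lies beyond Il12b, and Il10 has Il19, another gene of its family, on one side and Mapkapk2, a stress kinase gene, on the other.

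The 250 bases before the annotated start of Il6 and Il12b are shown because these promoters are the textbook end points of the factors that LPS activates. They come from RefSeq (GRCm38.p6, both on the + strand), at chr5:30012864-30013113 for Il6 and chr11:44399813-44400062 for Il12b. These coordinates belong to another build than the mm9 peaks and were not converted, so no peak is placed on them. Of the 3 genes, 2 were matched in the promoter table.
Il6: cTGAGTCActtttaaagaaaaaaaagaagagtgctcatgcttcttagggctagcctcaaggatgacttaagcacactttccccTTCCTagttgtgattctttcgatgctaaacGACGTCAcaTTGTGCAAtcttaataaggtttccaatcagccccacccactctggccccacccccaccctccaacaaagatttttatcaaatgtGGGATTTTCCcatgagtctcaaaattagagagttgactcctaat
Il12b: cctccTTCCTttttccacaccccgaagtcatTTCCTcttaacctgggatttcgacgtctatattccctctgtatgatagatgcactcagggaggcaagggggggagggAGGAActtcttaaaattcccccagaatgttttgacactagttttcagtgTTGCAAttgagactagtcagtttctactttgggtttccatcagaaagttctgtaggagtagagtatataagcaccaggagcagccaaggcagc
Capitals mark letters that match 1 of the motifs, each searched on both strands. The letters taken for NF-kB were GGGNNTTTCC, and those for the inflammatory factor AP-1 were TGANTCA. The core of the cAMP response element was searched as GACGTCA. For C/EBP factors a longer form, TTGNNCAA, and a shorter one, written TTGCAA, were searched. The core that PU.1 and other ETS factors bind was taken as AGGAA. Interferon regulatory factors were searched as GAAANNGAAA. The TATA box was taken as the letters TATAAA. The Il6 sequence holds the NF-kB letters from 44 bases before the start, the C/EBP letters from 128, the cAMP element core from 137, an ETS core from 167 and the AP-1 letters from 249. The Il12b sequence holds the short C/EBP letters from 93 bases before the start and ETS cores from 142, 219 and 245. Over 32851 RefSeq promoter sequences of the same length, the NF-kB letters were found in 1.41%, AP-1 in 6.75%, the cAMP element core in 2.78%, the longer C/EBP letters in 5.65%, the short ones in 5.34% and the ETS core in 60.3%. The interferon factor letters (2.98% of promoters) and TATAAA (12.4%) matched neither sequence. A match is a description of the letters and not a binding site.

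The measure used is the length of each window that lies in peaks of a mark. With single libraries no spread between cultures can be measured and no p-value is given. A difference in covered length is called a rise or a fall when it reaches 10 percentage points of the window, and values below that are given as values. A 5-point threshold, added after the values were seen, is used for H3K27ac, H3K4me3 and H3K27me3 after LPS. It is not used to call H3K4me1 or H3K36me2, where some values also passed it. Each call is set beside the share of all tiles of the same length on chromosomes 1 to 19 and X, among tiles where the mark has a peak in either list, that passed the same threshold. A gained peak has no overlap of at least 1 bp with the earlier list of its mark, a lost peak none with the later list, and their counts are set beside the same counts over all peaks. Bracketed 95% Newcombe intervals treat steps of 200 bp as independent, which neighbouring steps are not, so they describe resolution only. Read depth is unknown, and peaks that appear or disappear cannot be told apart from a change in detection.

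H3K27ac covered more of each window at 4 h of LPS than in untreated cells or at 1 h. At Il6 it covered 2.23 kb in untreated cells, 3.40 kb at 1 h and 7.65 kb at 4 h. At Il12b it covered 0.530 kb, 0 kb and 4.46 kb in the same order, and at Il10 0.842 kb, 1.47 kb and 3.97 kb. The 4 h value was the highest in each window, and Il12b had no H3K27ac peak at 1 h. The difference between untreated and 4 h was 10.8 points at Il6 (5.67 to 16.1), which passed the 10-point threshold, as did 5.08% of 50-kb tiles. It was 6.56 points at Il12b (3.24 to 9.91) and 7.81 points at Il10 (3.42 to 13.1), which did not; 4.31% of 60-kb and 5.99% of 40-kb tiles rose by 10 points. All 3 windows passed the 5-point threshold, against 12.4%, 11.4% and 14.0% of tiles of 50, 60 and 40 kb. The 10-point call at Il6 was lost when only peaks wholly inside the window were kept (8.10 points) or when the window was extended by 10 kb on each side (9.16 points). The same extension took Il10 over the 10-point threshold (12.0 points) and Il12b below the 5-point one (4.92 points). Over the genome the covered length of H3K27ac was 0.874 times the untreated value at 1 h and 1.09 times at 4 h.

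**Figure D1:**
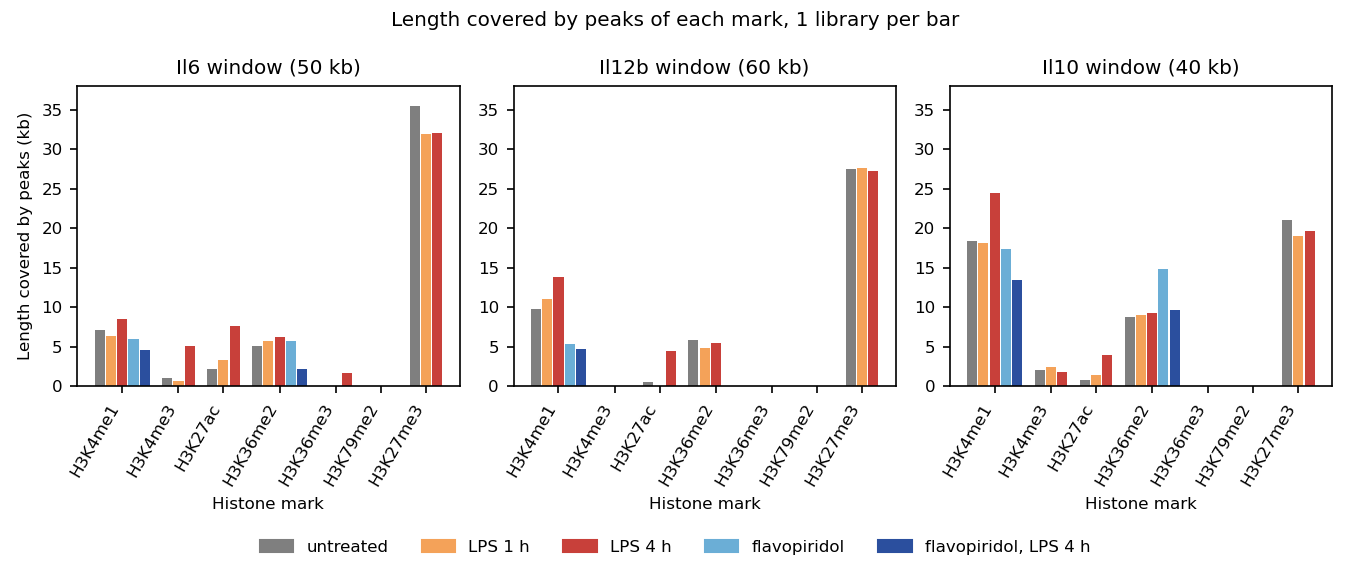
Length of each window covered by peaks (vertical axis, kb) for each histone mark (horizontal axis), with 1 bar per library coloured by condition and no error bar because each bar is 1 library. H3K27ac is highest at LPS 4 h in each window, H3K27me3 covers the most of the Il6 and Il12b windows in every condition with a list, and H3K79me2 has no bar.

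Of the 12 H3K27ac peaks at 4 h in the windows, 8 were gained, where 21.3% of all H3K27ac peaks of that list were. Of 4 peaks at 1 h, 1 was gained, against 9.05% of all. Of the 5 untreated peaks, 2 were lost at 1 h (18.8% of all) and 1 at 4 h (12.9% of all). The gained peaks were 2 at Il6, 3 at Il12b and 3 at Il10, and were between 575 and 4101 bp wide, their median width being 1230 bp where that of the 7402 gained peaks of the genome was 819.0 bp. They were chosen by H3K27ac and not by the other lists, but they lie in 3 named loci and are not independent of each other. A wider peak has more room for an overlap of 1 bp, and the part of width in the shares below was not tested. All 8 overlapped a PU.1 peak of untreated cells, against 46.4% of all gained peaks. All 8 overlapped an untreated H3K4me1 peak, against 77.4%. An untreated H3K27me3 peak overlapped 4 of the 8, all at Il6 and Il12b, against 13.9%. An H3K36me2 peak of 4 h overlapped 1 of the 8, at Il10, against 51.4%.

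At Il6 the widest gained H3K27ac peak lay at chr5:30338101-30342201. It is 4101 bp wide at 4 h and overlaps a 1085-bp peak of 1 h at chr5:30338998-30340082, with none in untreated cells. H3K4me3, the promoter mark, covered 836 bp there in untreated cells (chr5:30338930-30339765), 747 bp at 1 h (chr5:30339084-30339830) and 4444 bp at 4 h (chr5:30338893-30343336). H3K4me3 over the whole window was 1.12 kb, 0.747 kb and 5.08 kb. The difference to 4 h was 7.93 points (3.44 to 12.1), which passed the 5-point threshold as 1.47% of 50-kb tiles did. No H3K4me3 peak of 4 h was gained among the 4 in the windows, against 9.64% of all. Each overlapped an untreated peak. H3K4me1 at the same place was 2176 bp wide in untreated cells, 2170 bp at 1 h and 3305 bp at 4 h.

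The H3K27me3 peak around that place was in 2 pieces after LPS. In untreated cells 1 peak of 18599 bp covered chr5:30330824-30349422. At 1 h there were 2 peaks, chr5:30330687-30338990 and chr5:30341971-30349364, with 2980 bp between them. At 4 h the peaks were chr5:30330697-30338635 and chr5:30341729-30349438, 3093 bp apart. The outer ends moved by less than 200 bp. How often untreated H3K27me3 peaks are divided in the later lists was not counted over the genome. The reverse was seen at Il12b, where the untreated peaks chr11:44234221-44239503 and chr11:44240812-44241708 overlapped 1 peak of 4 h, chr11:44235754-44241510. The H3K27ac peak of 1 h lies in the gap of 1 h, and most of the length of the H3K27ac and H3K4me3 peaks of 4 h lies in that of 4 h. The 4101-bp H3K27ac peak lay to 100% in H3K27me3 of untreated cells, to 27.3% in that of 1 h and to 24.6% in that of 4 h. The untreated H3K4me3 peak lay wholly in the H3K27me3 peak. At 1 h H3K4me3 and H3K27me3 shared 0 kb, and at 4 h they shared 1.61 kb of the window. Both lists come from populations of cells, so shared positions do not show that both marks are on 1 chromosome copy.

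**Figure D2:**
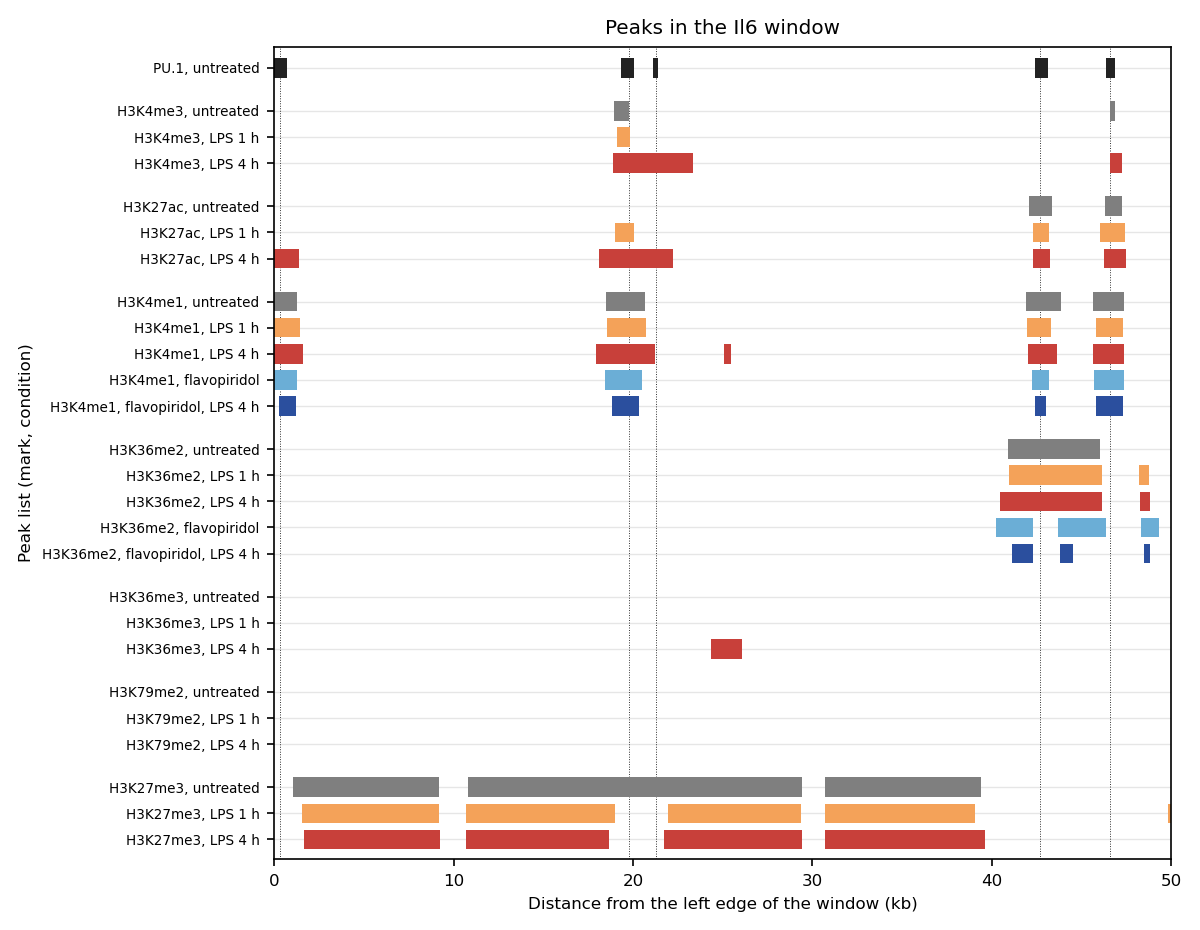
Peaks in the Il6 window by list (vertical axis), drawn at their distance from the window's left edge in kb (horizontal axis) and coloured by condition, with dotted lines at the 5 PU.1 summits. The untreated H3K27me3 bar around 20 kb is split at LPS 1 h and 4 h, and the H3K27ac and wide H3K4me3 bars of 4 h lie over the split.

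The other parts of the Il6 window differed in their starting marks. The second gained H3K27ac peak, chr5:30319011-30321371 (2361 bp), crosses the window's left edge and carried H3K4me1 in all 5 conditions. At chr5:30362069-30363333 and chr5:30366312-30367276, H3K27ac and H3K4me1 were present before LPS and at each time, and H3K27ac peaks there were 1265 and 965 bp wide in untreated cells and 934 and 1243 bp at 4 h. H3K36me2, the mark of active domains, lay only on that side of the window, where its main peak was 5145 bp wide in untreated cells, 5204 bp at 1 h and 5680 bp at 4 h. H3K36me3 had 1 peak in the 3 windows, at Il6 after 4 h (chr5:30344355-30346057, 1703 bp), where 11.5% of all H3K36me3 peaks of that list were gained. H3K79me2 had no peak in any window at any time.

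At Il12b the gained H3K27ac peaks stand together at the left of the window, at chr11:44203083-44204918 (1836 bp), chr11:44209349-44209923 (575 bp) and chr11:44212333-44213725 (1393 bp). Each overlapped an H3K4me1 peak in all 5 conditions and a PU.1 peak, and none had H3K27ac at 1 h. The fourth H3K27ac peak of 4 h, chr11:44250838-44251498, overlaps the only untreated one (chr11:44250935-44251464, 530 bp), which had no counterpart at 1 h. No H3K4me3, H3K36me3 or H3K79me2 peak lay in the Il12b window in any condition. Whether a promoter peak lies elsewhere was not examined, since the gene's start was not placed in mm9.

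At the left of the Il12b window the stretch free of H3K27me3 was longer after LPS. A peak of untreated cells began at chr11:44210606, and the overlapping peak began at 44211047 at 1 h and at 44213440 at 4 h. The peak to its left ended at 44204465, 44203387 and 44202986 in the same order. The stretch without H3K27me3 between them was 6140 bp, 7659 bp and 10453 bp long, and the 3 gained H3K27ac peaks of 4 h lie in it or across its edge. The peak at chr11:44203083-44204918 lay to 75.3% in H3K27me3 of untreated cells, to 16.6% at 1 h and to 0% at 4 h, and that at chr11:44212333-44213725 to 100%, 100% and 20.5%. Another gap, which began at 44241709 in untreated cells, was 3947, 6561 and 5159 bp long in the same order, and no H3K27ac peak was gained there. The gaps lying between it and the left one were shorter at 4 h than in untreated cells, or had closed. How often such gaps lengthen over the genome was not counted. On the right of the window H3K27me3 reached further at 4 h, with a last peak ending at 44249691 where that of untreated cells ended at 44247487, and the window totals were 27.5 kb, 27.6 kb and 27.2 kb.

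**Figure D3:**
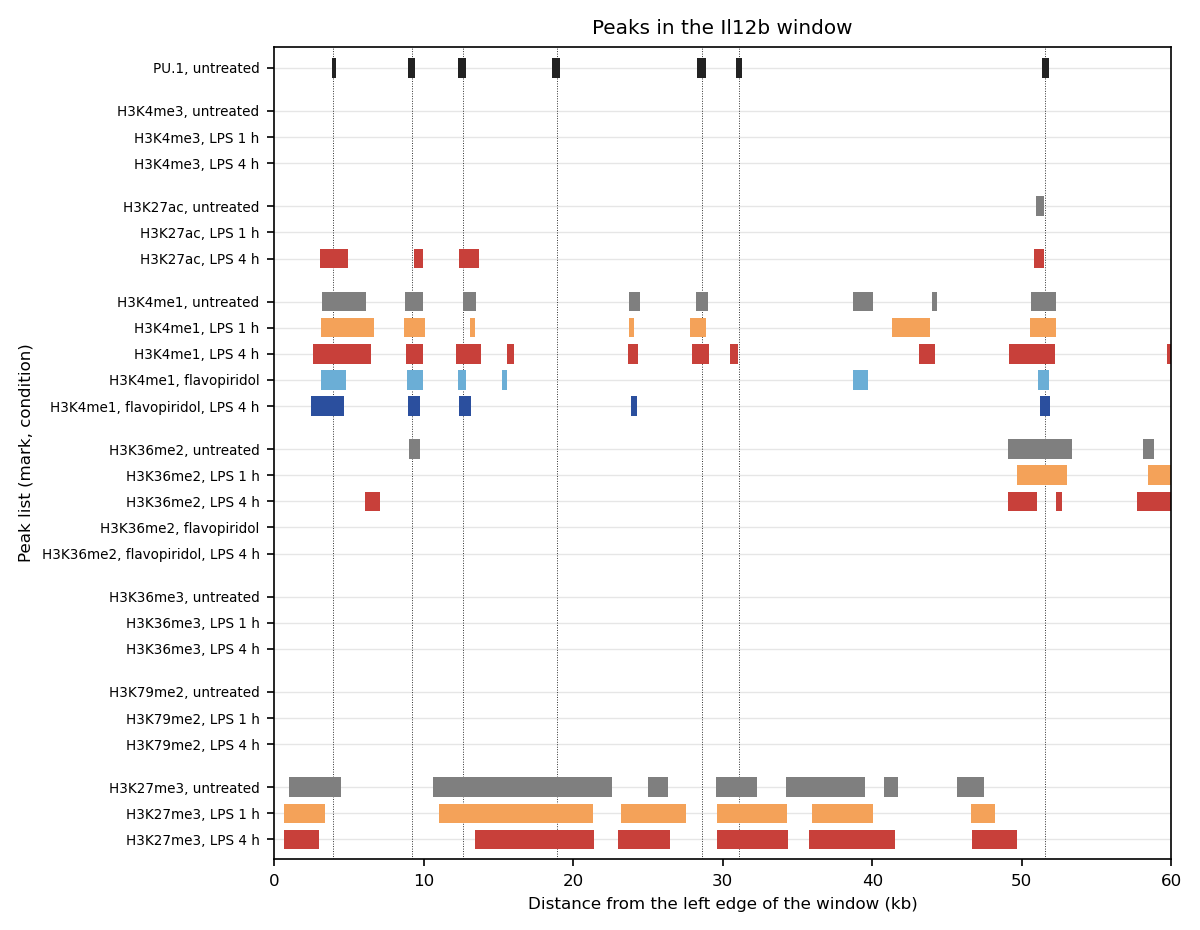
Peaks in the Il12b window by list (vertical axis), drawn at their distance from the window's left edge in kb (horizontal axis) and coloured by condition, with dotted lines at the 7 PU.1 summits. The stretch without H3K27me3 between about 5 and 10 kb is longer at each later time, and 3 of the 4 H3K27ac bars of LPS 4 h stand around it.

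At Il10 the gained H3K27ac peaks were chr1:132911774-132912840 (1067 bp), chr1:132914823-132915527 (705 bp) and chr1:132922138-132922985 (848 bp). The second lay inside an H3K4me3 peak that was 1504 bp wide in untreated cells, 1761 bp at 1 h and 1561 bp at 4 h. H3K4me3 in the window was 2.07 kb, 2.43 kb and 1.87 kb, so acetylation was called where H3K4me3 already stood. A further H3K27ac peak overlapped the other H3K4me3 peak of the window at each time, 456 bp wide in untreated cells, 1467 bp at 1 h and 1347 bp at 4 h. The untreated peak at chr1:132939032-132939417 (386 bp) had no counterpart at either time.

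The Il10 peaks of H3K27ac lay outside H3K27me3. Of the H3K27ac length of 4 h, 0 kb lay in H3K27me3 of untreated cells at Il10, where it was 4.42 of 7.65 kb (57.8%) at Il6 and 2.78 of 4.46 kb (62.2%) at Il12b. Over the genome 1.92% of that length lay in untreated H3K27me3. By 4 h the share was 13.2% at Il6, 6.41% at Il12b and 1.01% at Il10, against 1.35% over the genome. The genome shares take all H3K27ac peaks of 4 h, of which 21.3% were gained, where 8 of the 12 in the windows were. They were not computed for gained peaks alone. Untreated H3K27me3 also covered 71.0% of the Il6, 45.8% of the Il12b and 52.6% of the Il10 window. At Il10 the gaps between the H3K27me3 peaks that hold the gained acetylation were 4788 and 4254 bp long in untreated cells and 4606 and 4071 bp at 4 h.

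**Figure D4:**
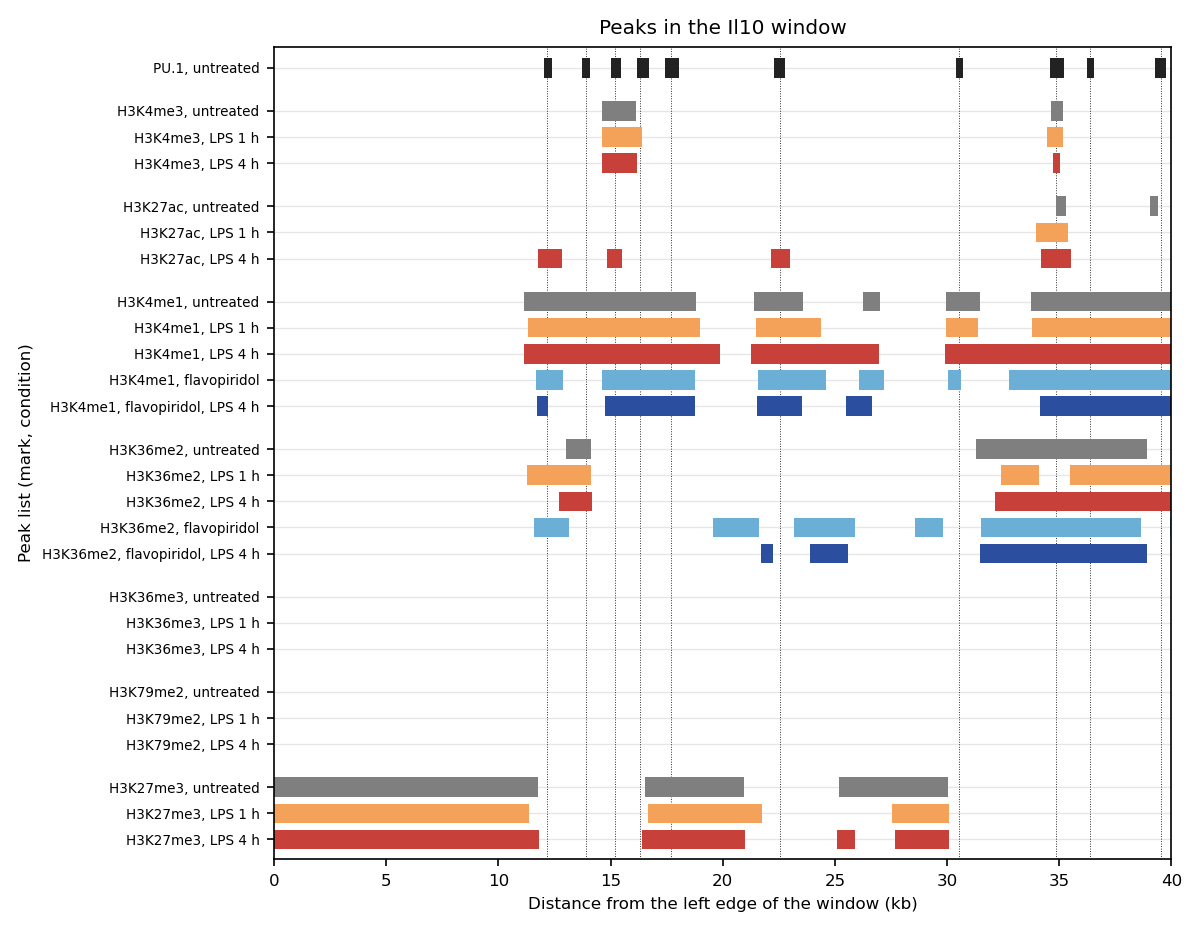
Peaks in the Il10 window by list (vertical axis), drawn at their distance from the window's left edge in kb (horizontal axis) and coloured by condition, with dotted lines at the 10 PU.1 summits. H3K27ac bars of LPS 4 h stand in gaps of H3K27me3 that are also there in untreated cells, and H3K4me1 covers more of the window than at Il6 or Il12b.

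Over the windows, H3K27me3 covered 35.5 kb at Il6 before LPS, 31.9 kb at 1 h and 32.1 kb at 4 h, and 21.0 kb, 19 kb and 19.6 kb at Il10. No window changed by 10 points. The 5-point threshold was passed as a fall at Il6 at 1 h (difference of -7.23 points, -15.3 to 1.03; 7.10% of 50-kb tiles) and 4 h (-6.72 points, -14.5 to 1.80; 2.48% of tiles), and at Il10 at 1 h (-5.09 points, -14.6 to 4.76; 9.05% of 40-kb tiles). At 4 h the median 50-kb tile was 3.37 points higher. With the window extended by 10 kb on each side none of these 3 falls passed the 5-point threshold: the Il6 difference was -2.48 points at 1 h and 0.704 points at 4 h, a change of sign, and that of Il10 at 1 h was -3.39 points. With only peaks wholly inside the window the Il10 difference at 1 h was -4.07 points. None of the 14 H3K27me3 peaks of 4 h in the windows was gained, against 28.2% of all, and none of the 14 untreated ones was lost, against 9.43%. At 4 h the 4 peaks at Il6 were 7558 to 8921 bp wide and the 6 at Il12b 2302 to 7959 bp. The median width of that list was 2681 bp. A wider peak has more room for an overlap of 1 bp, and the part of width in these counts was not tested. The covered length of H3K27me3 over the genome was 1.17 times the untreated value at 4 h. The H3K27me3 peaks of the windows had deposited −log10 q values of 0.750 to 4.52, so none is left at a minimum of 5, and each statement on this mark rests on peaks below it.

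H3K4me1 covered the most at Il10 in all 5 conditions. At Il6 it covered 7.15 kb in untreated cells, 6.44 kb at 1 h and 8.55 kb at 4 h, and at Il12b 9.77 kb, 11 kb and 13.9 kb. At Il10 it covered 18.4 kb, 18.2 kb and 24.5 kb. The untreated to 4 h difference was called at Il10 (15.3 points, 5.73 to 24.9), as in 2.46% of 40-kb tiles. It was 2.80 points at Il6 and 6.84 points at Il12b, below the 10-point threshold, and 7.48% of 60-kb tiles rose by 5 points. At 4 h, 1 peak at the right of the Il10 window covered 10094 bp inside it, and ran past its edge, where 2 untreated peaks covered 1539 and 6240 bp. In the middle 1 peak of 5674 bp stood over 2 untreated ones of 2193 and 752 bp, and the peak at the left was 8733 bp wide at 4 h and 7659 bp in untreated cells. No Il10 peak was gained. With only peaks wholly inside the window the Il10 difference was 5.66 points, below the threshold. Of 18 H3K4me1 peaks of 4 h in the windows 3 were gained (15.0% of all), 1 at Il6 and 2 at Il12b, and of 18 untreated ones 1 was lost (6.55% of all).

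With flavopiridol before LPS, H3K4me1 covered 4.55 kb at Il6, 4.78 kb at Il12b and 13.5 kb at Il10, the lowest value of the 5 conditions in each window. Against LPS alone the fall was called at Il12b (15.2 points lower, interval of the difference -20.7 to -9.30) and at Il10 (27.5 points lower, -36.5 to -17.8). The same fall was seen in 24.9% of 60-kb and 27.8% of 40-kb tiles. At Il6 it was 8.02 points, below the threshold. Of the 18 peaks of LPS 4 h, 6 were lost with flavopiridol, 1 at Il6 and 5 at Il12b, and 33.9% of all were lost. The count was 12 of 18 when a kept peak had to be covered by at least 50%. At a −log10 q of 5 or more it was 13 of the 13 peaks left, which the filter fixes, since no peak of flavopiridol and LPS in the windows reaches that value. Of 14 peaks with flavopiridol and LPS none was gained, against 11.4% of all. The list of flavopiridol and LPS covered 0.585 times the genome length of the LPS list, so the windows share a difference between whole lists.

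The H3K4me1 peaks that remained with flavopiridol and LPS were narrower than the LPS 4 h peaks they overlapped. The peak over the gained H3K27ac at Il6 was 3305 bp wide with LPS and 1513 bp with flavopiridol and LPS, and the peak at chr11:44202596-44206504 at Il12b went from 3909 bp to 2167 bp. All 8 places that gained H3K27ac with LPS still had an H3K4me1 peak with flavopiridol and LPS, against 55.8% of all gained peaks. The H3K4me1 peaks of that list in the windows had deposited −log10 q values of 0.846 to 2.50, so the count is 0 of 8 at a minimum of 5. Flavopiridol alone left 6.01 kb at Il6, 5.36 kb at Il12b and 17.4 kb at Il10, none of which is a called difference from untreated cells. It lost 4 of 18 untreated peaks, all at Il12b, against 20.9% of all.

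H3K36me2 covered 5.14 kb at Il6 before LPS, 5.75 kb at 1 h and 6.27 kb at 4 h. In the same order it covered 5.83 kb, 4.88 kb and 5.56 kb at Il12b and 8.73 kb, 9.08 kb and 9.34 kb at Il10. No window was called at either time, where 30.8% of 50-kb, 29.3% of 60-kb and 32.8% of 40-kb tiles rose by 10 points at 4 h. The median difference of 50-kb tiles at 4 h was 5.60 points, and that of the Il6 window was 2.25. Of 8 peaks of 4 h, 2 were gained, against 25.2% of all. With flavopiridol the windows differed from each other. At Il12b no H3K36me2 peak was left with flavopiridol, alone or before LPS. The differences were -9.71 points from untreated cells and -9.27 points from LPS 4 h, both short of the 10-point threshold. Of 60-kb tiles, 10.9% and 46.6% fell by 10 points in these comparisons. The untreated Il12b peaks had −log10 q values of 0.706 to 0.878, and no LPS 4 h peak there reached 5. Both Il12b differences were 0 when peaks under a −log10 q of 5 were left out. At Il10 flavopiridol alone had 14.8 kb, a called rise of 15.1 points (6.07 to 23.6) that 26.1% of 40-kb tiles also showed, and flavopiridol with LPS had 9.66 kb, a called fall of 12.8 points from flavopiridol alone (interval of the difference -21.7 to -3.98; 40.7% of tiles). Both Il10 differences were 0 when peaks under a −log10 q of 5 were left out, since no peak of untreated cells or of either flavopiridol list there reaches it. At Il6 the values were 5.76 kb and 2.21 kb.

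In counts of peaks, 4 of 9 H3K36me2 peaks were gained with flavopiridol alone (28.7% of all). It lost 3 of 6 untreated peaks, all at Il12b, against 9178 of 50867 over the genome. Against LPS 4 h, flavopiridol and LPS gained 2 of 6 (12.1% of all) and lost 5 of 8 (33.8% of all). When peaks under a −log10 q of 5 were left out, 2 peaks of LPS 4 h remained and none of untreated cells or of either flavopiridol list. Both gained counts and the count lost from untreated cells were then 0, and the count lost from LPS 4 h was 2 of 2. In the 2 flavopiridol lists, 0.197% and 0.0390% of H3K36me2 peaks had a −log10 q of at least 5, against 9.02% to 32.5% in the other lists of that mark. For H3K4me1 these shares were 12.8% and 4.02%, against 48.2% to 54.4%. The part of this in the flavopiridol differences was not tested.

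PU.1 had 22 distinct peaks in untreated cells, 5 at Il6, 7 at Il12b and 10 at Il10. As many or more lay in 15.3% of 50-kb, 11.4% of 60-kb and 1.26% of 40-kb tiles, so the Il10 window stood in the upper end of its tiles. In untreated cells 19 of the 22 overlapped H3K4me1 (69.6% of all PU.1 peaks) and 5 overlapped H3K27ac (45.2% of all). H3K27me3 overlapped 8 of them (10.8% of all), 2 at Il6, 4 at Il12b and 2 at Il10. None overlapped H3K36me3 (13.7% of all) or H3K79me2 (17.2% of all). At 4 h, 13 overlapped H3K27ac, against 45.8% of all.

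After LPS, 9 of the 17 PU.1 peaks without H3K27ac had it at 4 h, 3 in each window, against 9.67% of such peaks over the genome. At 1 h 1 of the 17 had it, at Il6, against 4.15%. Of the 8 PU.1 peaks in H3K27me3, 4 were outside it at 4 h, 2 at Il6 and 2 at Il12b, against 14.2%; with histone peaks under a −log10 q of 5 left out, none of the 8 overlapped H3K27me3 to begin with. These 4 are among the 9 that gained H3K27ac. Both Il10 peaks in H3K27me3 stayed in it at each time and never overlapped H3K27ac. Gains of H3K27ac at PU.1 peaks and gained H3K27ac peaks are counted from the same lists and are not separate evidence.

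**Figure D5:**
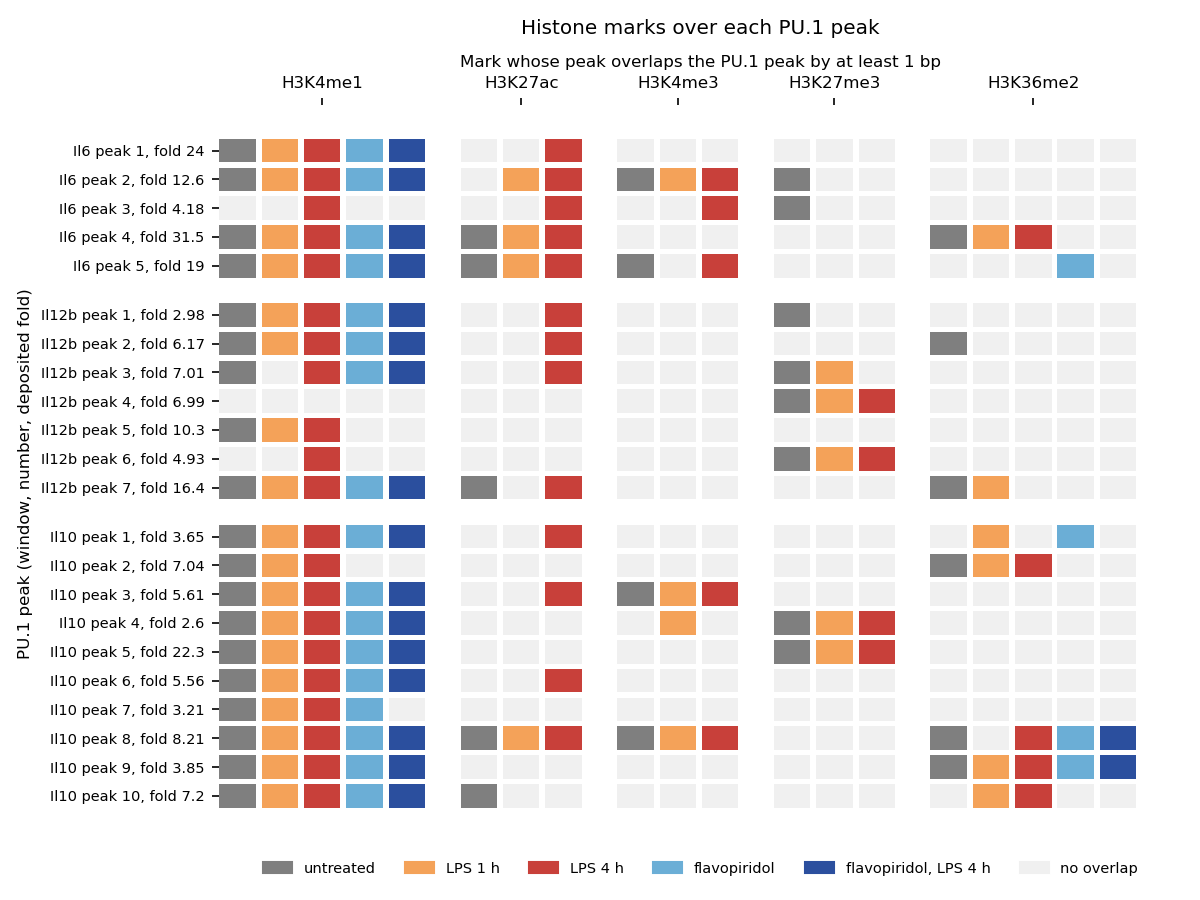
Overlap of each of the 22 PU.1 peaks (vertical axis, with the deposited fold enrichment) with peaks of 5 marks (horizontal axis), filled in the colour of the condition where they overlap and pale where they do not. H3K27ac is filled at 5 PU.1 peaks in untreated cells, 4 at LPS 1 h and 13 at LPS 4 h, and H3K27me3 at 8, 5 and 4.

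By the authors' deposited fold enrichment, the highest PU.1 peaks of Il6 and Il12b had H3K27ac in untreated cells and so could not gain it. That of Il10 could, and had none at 4 h. At Il6 the highest was chr5:30362385-30363135 at 31.5-fold, above 96.4% of all PU.1 peaks, and it had H3K27ac in every condition with a list. The next, chr5:30319996-30320696 (24.0-fold), gained H3K27ac at 4 h, and the third, chr5:30366348-30366846 (19-fold), had it throughout and overlapped H3K4me3 in untreated cells and at 4 h but not at 1 h. The peak at the H3K4me3 site, chr5:30339311-30340055 (12.6-fold), gained H3K27ac at 1 h, and the weakest, chr5:30341121-30341398 (4.18-fold), gained H3K27ac, H3K4me1 and H3K4me3 at 4 h. From the centre of the 4444-bp H3K4me3 peak, the summits of the 5 peaks lay 20.8, 1.32, 0.144, 21.6 and 25.5 kb away, in coordinate order.

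At Il12b the highest PU.1 peak, chr11:44251337-44251803 (16.4-fold), overlapped the H3K27ac peak that was absent at 1 h. The second, chr11:44228302-44228866 (10.3-fold), never overlapped H3K27ac, and had H3K4me1 in untreated and LPS cells but not with flavopiridol. The third, chr11:44212285-44212847 (7.01-fold), gained H3K27ac at 4 h and was outside H3K27me3 only then. The other PU.1 peaks that gained H3K27ac had folds of 2.98 (chr11:44203837-44204125, above 5.05% of all PU.1 peaks) and 6.17 (chr11:44208979-44209415).

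At Il10 the highest PU.1 peak, chr1:132917427-132918045 (22.3-fold, above 90.8% of all), lay in H3K27me3 at each time and in H3K4me1 in all 5 conditions, and had H3K27ac in none. The second, chr1:132934584-132935199 (8.21-fold), had H3K4me1, H3K4me3 and H3K27ac in every condition with a list. The third, chr1:132939266-132939742 (7.20-fold), had H3K27ac in untreated cells only. The peaks that gained it had folds of 3.65 (chr1:132912049-132912393), 5.61 (chr1:132915018-132915464) and 5.56 (chr1:132922290-132922757). The PU.1 peak at chr1:132916164-132916704 (2.60-fold) overlapped H3K4me3 at 1 h only.

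The deposited 27-state segmentations give the same windows as a mosaic of 200-bp steps. State 19, whose untreated segments lie to 95.7% in H3K27me3 peaks, held 36.2 kb at Il6 in untreated cells, 30.6 kb at 1 h and 24.6 kb at 4 h. At Il12b it held 15.8, 20.0 and 11.4 kb and at Il10 16.8, 16.6 and 15.2 kb. H3K27me3 peaks covered 35.5, 31.9 and 32.1 kb at Il6, so most of the lower length of state 19 there at 4 h was not matched by these peaks. Over the genome state 19 held 286 Mb in untreated cells and 261 Mb at 4 h, where H3K27me3 peaks covered 362.5 and 424.8 Mb. State 27 lay to 4.38% in H3K27me3 peaks in untreated cells and to 8.52% at 4 h. State 17, with H3K4me1 over 99.9% and H3K27ac over 98.7% of its length, held 0.800, 1.20 and 2.60 kb at Il6, 0.200 kb, none and 1.60 kb at Il12b, and 0.400, 0.600 and 1.80 kb at Il10. State 16, with H3K4me1 over 98.1% and H3K27ac over 14.3%, held 10.6, 8.40 and 11.6 kb at Il10. At Il12b state 26, which has H3K36me2 over 64.5%, held 2.60, 4.20 and 10.0 kb, and state 27, with little of any mark, held 37.2, 30.4 and 32.0 kb. H3K36me2 peaks covered 5.83, 4.88 and 5.56 kb of that window, so the greater length of state 26 was not matched by H3K36me2 peaks.

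Between untreated cells and 4 h, 41.6% of steps at Il6, 36.7% at Il12b and 33.5% at Il10 had another state, against 12.2% of all steps. At 1 h the shares were 23.2%, 35.0% and 21.0%, against 11.0%. State 27 holds 68.8% of it in untreated cells and 8.40% of the Il6, 62.0% of the Il12b and 10.0% of the Il10 window, and its part in the difference was not tested. The most frequent move at Il6 was from state 19 to state 27, over 7.20 kb at 4 h. It took 36 of the 181 state 19 steps there, close to the 20.2% of state 19 steps that made it over the genome. Moves from state 19 to states 22 and 23, which have H3K4me3 over 92.5% and 99.6% of their length, took 1.00 and 0.800 kb at Il6, and over the genome 0.0387% and 0.00657% of state 19 steps made them. The Il6 window held 23 segments before LPS, 20 after 1 h and 44 after 4 h. At Il12b it was 24, 25 and 24, and at Il10 36, 32 and 35.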

How the data were processed

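The submitters' processing notes name Bowtie 1.0.1, MACS2 and the mm9 build. The peak caller's options and its control were not given in the sources used here. Every deposited list gives each peak's fold enrichment, a ratio, with its −log10 p and −log10 q and a score, all as the authors deposited them, and hold no read counts, so depth is unknown. The authors also deposited segmentations in 200-bp steps. The PU.1 list holds 107962 lines and 99565 distinct intervals, which were used.

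Each of the 29 samples is 1 library, and 26 have a list. Between histone lists of 1 mark, fold enrichment of overlapping peaks ranked alike only weakly (Spearman 0.0224 to 0.419 over 27 comparisons), and widths more so (0.539 to 0.957), so intervals were used and not heights. Covered lengths, differences, gained and lost peaks (overlap of 1 bp) and PU.1 overlaps were computed in Python 3.11.15 with numpy 2.4.6 and pandas 2.3.3 and drawn with matplotlib 3.10.9, and the interval code was tested on simulated data. The closing part gives the effect of other settings. PU.1 peaks named are the 3 of highest fold per gene and those that gained or lost H3K27ac or H3K4me3 after LPS. The members and lists were chosen with earlier results of these data known. RefSeq tables (GRCm38.p6) gave names, neighbours and promoter sequence. Planned lists of other response genes and of cell type markers were not analysed here, since no mm9 annotation was used, so the cell type was not checked against markers. The 18-state segmentation was only counted.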

Additional observations from a re-analysis of the deposited data

Results flagged for a closer look

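Some covered lengths moved in opposite directions at the 2 times of LPS, or after LPS without and with flavopiridol. The 1 h and 4 h differences share the same untreated list. Each value is 1 library against 1 library and the differences between them were not tested.

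Between 1 h and 4 h of LPS, each against untreated cells, H3K4me1 at Il6 differed by -0.718 kb and 1.40 kb, and H3K4me1 at Il10 by -0.145 kb and 6.12 kb. H3K4me3 differed by -0.373 kb and 3.96 kb at Il6 and by 0.362 kb and -0.197 kb at Il10. At Il12b, H3K27ac differed by -0.530 kb and 3.93 kb and H3K27me3 by 0.147 kb and -0.245 kb.

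The difference between lists with and without 4 h of LPS also had opposite signs without and with flavopiridol. For H3K4me1 it was 1.40 kb without and -1.47 kb with flavopiridol at Il6, 4.11 kb and -0.578 kb at Il12b, and 6.12 kb and -3.89 kb at Il10. For H3K36me2 it was 1.12 kb and -3.55 kb at Il6 and 0.615 kb and -5.13 kb at Il10. Over the genome, the list of flavopiridol and LPS covered 0.816 times the length of the flavopiridol list for H3K4me1 and 0.755 times for H3K36me2. The flavopiridol list was taken after 1 h of the drug, and no list has flavopiridol without LPS at the later time. LPS and the added 4 h therefore cannot be told apart in the differences with flavopiridol.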

How the results depend on the processing

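No paired analysis was possible because each mark and condition has 1 library and the labels give no replicate numbers. Of 60 differences in covered share, 14 were 0 because neither list has a peak in the window. Of the other 46, the number that kept their sign and their side of the 10-point threshold was 46 with peaks 1 kb or less apart merged, 43 with equal numbers of peaks per mark, 41 with peaks wholly inside the window, 39 with windows extended by 10 kb, 38 with peaks of at least 1 kb and 17 without peaks under a −log10 q of 5, where 20 became 0. Over these settings the sign changed in 14 of 276 values. None of the 14 had passed 10 points, and 1, H3K27me3 at Il6 at 4 h (0.704 with the extended window), had passed 5. The falls of H3K4me1 with flavopiridol and LPS against LPS at Il12b and Il10 stayed past the threshold in all 6 settings, although at a −log10 q of 5 no flavopiridol peak is left and the fall is fixed by the filter. With segments of at least 400 bp, 18.1% to 38.1% of steps changed state.

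Without peaks under a −log10 q of 5, the difference in H3K4me1 from untreated was -14.9 points at Il12b at 1 h, a change of sign, and 26.5 at Il10 at 4 h. With flavopiridol alone it was -10.4 at Il6, -14.9 at Il12b and -34.7 at Il10, and flavopiridol with LPS against LPS gave -10.5 at Il6 and -61.3 at Il10. H3K36me2 at Il6 differed by 11.5 points at 1 h, 12.5 at 4 h, -12.5 for flavopiridol with LPS against LPS and 0 against flavopiridol. It differed by 0 at Il12b and Il10 with flavopiridol, by 0 at Il12b for flavopiridol with LPS against LPS and by 0 at Il10 against flavopiridol.

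With only peaks wholly inside the window, H3K27ac at Il6 at 4 h differed by 8.10 points and H3K4me1 at Il10 by 5.66 points at 4 h and -16.9 for flavopiridol with LPS against LPS. H3K36me2 at Il10 differed by -10.4 at 1 h and -18.1 at 4 h, both changes of sign, and by 20.5 for flavopiridol with LPS against LPS, which was -5.49 at Il12b. With the extended window, H3K27ac at 4 h differed by 9.16 at Il6, 4.92 at Il12b and 12.0 at Il10, H3K36me2 at Il12b by -11.6 for flavopiridol with LPS against LPS and -1.65 against flavopiridol, and H3K36me3 at Il10 by 2.35 at 1 h. For flavopiridol with LPS against LPS at Il6, peaks of at least 1 kb gave -10.4 for H3K4me1 and equal numbers gave -10.2 for H3K36me2.

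Counts of gained and lost peaks were small and moved. With at least 50% of a peak covered, H3K27ac gained 2 at 1 h, H3K4me1 lost 2 at 4 h and 12 with flavopiridol and LPS, and H3K27me3 gained 2 and lost 1 at 4 h. Without peaks under a −log10 q of 5, H3K27ac gained 2 at 1 h, H3K4me1 gained 5 and lost 4 at 4 h and lost 13 with flavopiridol and LPS, and H3K36me2 lost 0 at 4 h, gained 0 and lost 0 with flavopiridol and gained 0 and lost 2 with flavopiridol and LPS. With peaks of at least 1 kb, H3K27ac gained 3 and lost 1 at 1 h, and H3K36me2 gained 1 and lost 0 at 4 h, lost 1 with flavopiridol and gained 1 and lost 3 with flavopiridol and LPS. H3K27ac peaks gained at 4 h numbered 7 to 9 over the settings and PU.1 peaks gaining H3K27ac 8 to 10. With at least 50% of the PU.1 peak covered, 3 had H3K27ac in untreated cells. Without histone peaks under a −log10 q of 5, 0 had H3K27me3 in untreated cells, 0 had it at 4 h and 0 lost it. The cause of these moves was not tested.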
